A study of Mus musculus with 6 samples.

Results

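The 34 genes described here encode the enzymes, regulators and transporters by which a cell makes cholesterol and fatty acids and moves cholesterol. They were chosen by gene symbol for their place in these pathways, with earlier results of these data known, and all 34 were found among the 48368 symbols of the deposited count tables. They fall into 5 regulators, 18 enzymes of the sterol branch, 3 genes of sterol transport and 8 enzymes of the fatty acid branch. RNA was measured by sequencing in 6 libraries of cultured cancer-associated fibroblasts, the fibroblasts found in a tumour. All came from tumours of MMTV-PyMT mice, in which the mouse mammary tumour virus promoter drives the polyomavirus middle T oncogene in mammary epithelium and gives mammary tumours. The mice of 3 libraries were Hic-5+/- (labelled HET) and those of the other 3 were Hic-5-/- (labelled KO), so the controls also carried 1 mutant allele and no wild-type library was part of the comparison. Tgfb1i1 encodes Hic-5, a paxillin relative with LIM domains that sits at focal adhesions. The cells were grown in medium with 10% FBS, which supplies lipoproteins, and no age is given for the mice. The series text speaks of technical triplicates, whereas only HET replicate 3 and KO replicate 3 have a title number in common, so p-values here measure only the spread between these libraries.

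Cells make cholesterol from acetyl-CoA through mevalonate, farnesyl diphosphate, squalene and lanosterol, and they make fatty acids from acetyl-CoA through malonyl-CoA. Both branches are controlled by SREBP transcription factors, which are made as membrane proteins of the endoplasmic reticulum. SCAP carries SREBP to the Golgi, where it is cut to release the active factor, and the INSIG proteins hold SCAP back when sterols are plentiful. SREBP2 acts mainly on sterol genes and SREBP1 mainly on fatty acid genes, and both work together with the factors NF-Y, which binds CCAAT, and Sp1, which binds GC boxes.

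Each library held between 24954273 and 42470598 estimated counts, and 17584 genes passed the filter on low counts, all 34 of these genes among them. Levels are given as CPM, counts relative to the library total after scaling by TMM factors. For Tgfb1i1 they were 223, 348 and 125 CPM in HET (replicates 1 to 3, the order used throughout) and 90.4, 0.232 and 156 CPM in the libraries labelled KO. Only KO replicate 2 was thus nearly without the transcript, so the groups are called by their labels throughout. KO replicate 2 stood apart from the other 5 libraries: its score on the first principal component of all tested genes was 154.4, against -79.2 to 18.2 in the others. Its Col1a2 level, which marks fibroblasts, was 0.491 CPM, against 577 to 5110 CPM in the others. Summed over 11 fibroblast markers, HET levels were 9570 to 18000 CPM, while the KO-labelled libraries had 3260 to 7280 CPM. Of the 10 tested, 9 had lower fitted values, against 49.1% of all genes. Only the collagens Col1a1, Col1a2 and Col3a1 lay lower without overlap between the labels, against 7.42% of all genes. The other markers overlapped, with Vim highest in KO replicate 3 (4390 CPM) and Dcn in KO replicate 1 (370 CPM). The sum over 10 epithelial markers was 1.71 to 4.98 CPM in HET and 1.18, 87.8 and 10.9 CPM in the KO-labelled libraries. The sum over 12 proliferation genes ran from 298 to 1220 CPM for HET and from 814 to 2880 CPM for KO, highest in KO replicate 2. Whether these marker differences have a part in the results on lipid synthesis genes was not tested. In bulk RNA, fewer cells of a type and less RNA per cell cannot be told apart.

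Promoter windows from RefSeq (GRCm38.p6), 250 bases before to 50 after each listed start, were found for 26 of the 34 genes. Fdps, Fdft1, Sqle, Stard4, Abcg1, Scd1, Scd2 and Fads1 had no window in the table used here. The 250 bases before the start are printed for 4 genes, to show how the letters CCAAT recur in them. Hmgcs1 encodes the synthase that makes HMG-CoA. Of the 26 genes with a window, it alone had an exact match to a sterol response element core, TCACNCCAC. Variants of this core were not searched, so the count does not show that the other windows lack the element. Insig2, Mvd and Fasn were printed because their values did not overlap between the labels and no annotated exon lies in the stretch shown; the windows of Acaca and Elovl6 hold no CCAAT. Capitals mark CCAAT or its complement ATTGG and, in Hmgcs1, also the sterol response element core. The stretches, 5′ to 3′ on the strand of the gene, lie at chr13:119690101-119690350 (Hmgcs1, plus strand), chr8:122443423-122443672 (Mvd, minus strand), chr1:121332590-121332839 (Insig2, minus strand, the farthest upstream of its listed starts) and chr11:120824548-120824797 (Fasn, minus strand).
Hmgcs1: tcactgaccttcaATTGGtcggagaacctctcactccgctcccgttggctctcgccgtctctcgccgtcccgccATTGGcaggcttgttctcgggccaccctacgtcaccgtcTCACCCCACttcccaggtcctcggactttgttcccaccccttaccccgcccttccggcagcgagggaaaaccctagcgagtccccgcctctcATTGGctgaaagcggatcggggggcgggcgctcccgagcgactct
Mvd: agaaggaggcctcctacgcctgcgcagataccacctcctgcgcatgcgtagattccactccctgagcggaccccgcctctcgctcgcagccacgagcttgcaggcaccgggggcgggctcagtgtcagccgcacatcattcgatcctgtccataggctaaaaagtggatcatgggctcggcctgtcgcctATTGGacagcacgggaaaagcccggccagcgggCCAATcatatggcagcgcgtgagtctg
Insig2: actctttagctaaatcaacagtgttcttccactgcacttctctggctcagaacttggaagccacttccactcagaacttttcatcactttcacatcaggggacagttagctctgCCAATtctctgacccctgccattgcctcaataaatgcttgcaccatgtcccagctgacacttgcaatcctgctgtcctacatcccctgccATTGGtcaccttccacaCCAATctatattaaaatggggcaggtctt
Fasn: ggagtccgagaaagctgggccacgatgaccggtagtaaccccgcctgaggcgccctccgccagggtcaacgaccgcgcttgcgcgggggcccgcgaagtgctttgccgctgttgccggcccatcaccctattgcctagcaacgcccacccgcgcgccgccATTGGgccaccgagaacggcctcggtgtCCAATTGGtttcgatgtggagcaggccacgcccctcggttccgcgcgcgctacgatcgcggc

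In the Hmgcs1 stretch the sterol response element core begins at position -137, with -1 the last base before the start, and CCAAT matches on the minus strand begin at -237, -176 and -45. The Mvd stretch holds CCAAT matches at -60 and -27, and the Insig2 stretch holds them at -136, -46 and -29. The windows of the other listed Insig2 starts hold no CCAAT, and which start these cells use was not measured. The Fasn stretch holds matches at -90, -62 and -59, the last of these overlapping its neighbour. Over the full windows of 300 bases and both strands, CCAAT was found in 14 of 15 sterol branch genes with a window (93.3%), in 4 of 5 regulators and in 2 of 5 fatty acid genes. Over all 27025 genes in the table the share was 41.1%, and over all 32851 windows it was 37.4%. The GC box GGGCGG was found in 14 of the 15 sterol branch genes, against 38.2% of all genes. The core TCACNCCAC was found in 1.24% of all windows. An E-box that SREBP and other factors bind, TCACGTGA, was in none of the members' windows and in 0.974% of all windows. The DR4 element of the oxysterol receptor LXR was searched only as 2 exact AGGTCA repeats with 4 bases between them. That form was in none of the members' windows and in 0.0152% of all windows. Variants of the element were not searched, so this does not show that the members' windows lack it. These are matches of letters, not measured binding sites.

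Across the whole set, most of these genes had lower values in the KO-labelled libraries, while no single gene passed the adjusted test of edgeR. The fitted log2 fold change (KO minus HET) was below 0 for 26 of 34 genes, against 49.1% of all tested genes. The median over the 34 genes was -0.45, against 0.01 over all tested genes. With edgeR's quasi-likelihood test and Benjamini-Hochberg adjustment over all genes, 0 of the 34 passed a threshold of 0.05, as did 0% of all genes, and the smallest adjusted p among the 34 was 0.579. An unadjusted p under 0.05 was reached by 9 of the 34, against a background of 8.59%, and 8 of the 9 were lower in the KO-labelled libraries, against 4.29% of all genes lower at that level. DESeq2 called 1 of the 34, Insig2, against 1.05% of the genes to which it gave an adjusted p, and limma-voom called none. Without KO replicate 2 the number lower was again 26, and 5 genes had an unadjusted p under 0.05, against 5.09% of all genes. That number was 4 without HET replicate 2, against 3.63%, and 5 without HET replicate 3, against 5.92%.

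In 9 of the 34 genes every KO-labelled library lay below every HET library, against 7.42% of all tested genes. These were Insig2, Mvk, Mvd, Fdps, Sqle, Lss, Nsdhl, Stard4 and Scd1. In 3 of the 34 every KO-labelled library lay above every HET library, against 8.1% of all tested genes, and these were Acaca, Fasn and Elovl6. With library totals in place of TMM factors, 8 of the 34 genes did not overlap in 1 or the other direction, against 17.3% of all genes, and 3 of the 6 sterol branch genes among them did so. That scaling moved the median of all genes to 0.15, with 38.4% of all genes lower, and 23 of the 34 genes were then lower.

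**Figure D1:**
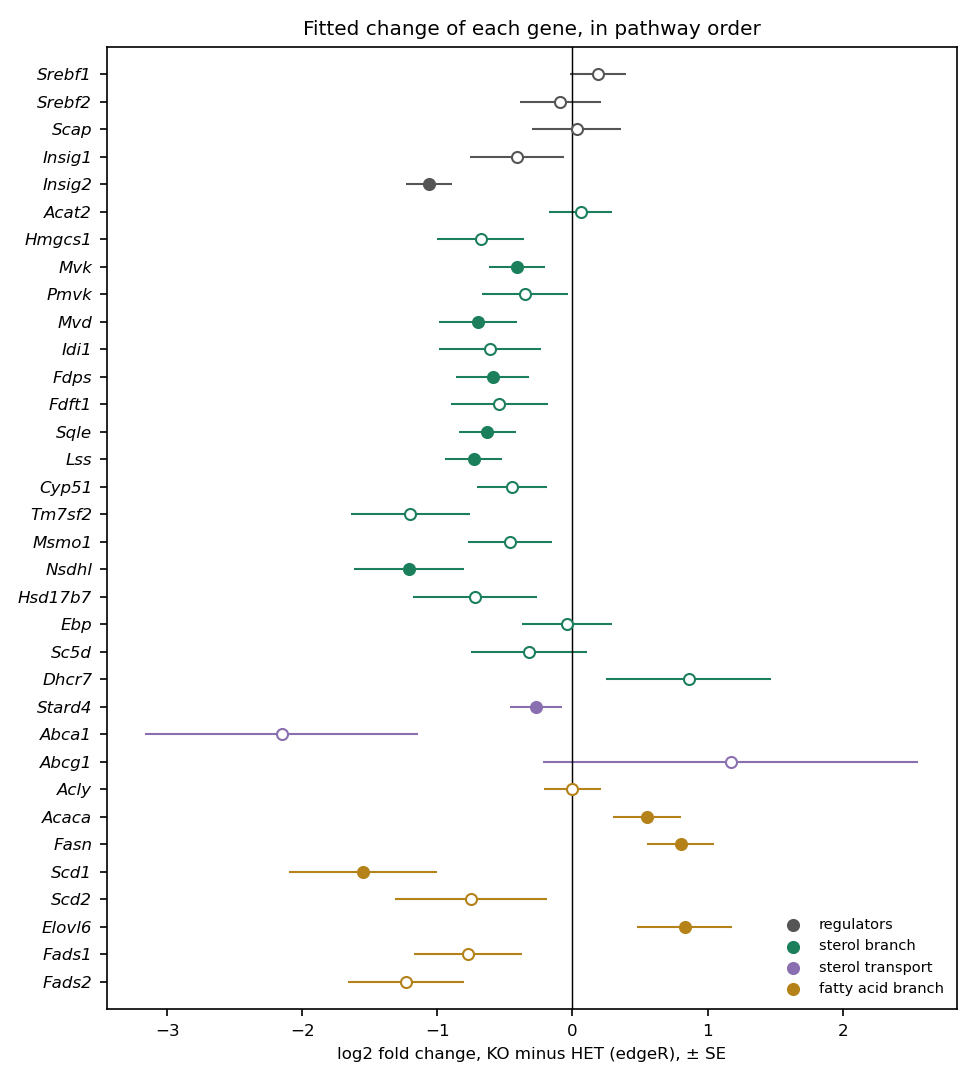
Fitted log2 fold change of each of the 34 genes, KO minus HET, with its SE as bars, in pathway order from regulators at the top to fatty acid enzymes at the bottom. Filled points are the 12 genes whose 3 KO-labelled libraries all lay on 1 side of the 3 HET libraries; 16 of 18 sterol branch genes lie left of 0, and the fatty acid branch lies on both sides.

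Among the regulators, the transcripts of the SREBP factors and of SCAP differed little between the labels, while Insig2 was lower in every KO-labelled library, at 0.481 times the HET level. Srebf1, which encodes SREBP1, had 81.4, 65.5 and 73.6 CPM in HET and 86.7, 98.8 and 66.9 CPM in the KO-labelled libraries. The ranges overlapped, and the log2 fold change was 0.19 ± 0.21 (SE), with a 95% interval of -0.32 to 0.71. Srebf2, which encodes SREBP2, had 150, 109 and 94.6 CPM in HET and 150, 92.2 and 89.1 CPM in the KO-labelled libraries. Its highest value in each label was replicate 1, and its log2 fold change was -0.09 ± 0.30 with an interval of -0.81 to 0.63. That sign was positive with library totals and with RPKM, and varied with the library left out. Scap, the escort that brings SREBP to the Golgi, had 107, 72.5 and 117 CPM in HET and 146, 84.8 and 72.9 CPM in the KO-labelled libraries. KO replicate 1 was the highest of the 6 libraries and the other KO-labelled values lay within the HET range, and the log2 fold change was 0.03 ± 0.33, with a sign that turned in limma-voom and with the library left out. Srebf1 and Scap overlap other genes with counts (Rai1 and 5830462I19Rik, both on the opposite strand), and no source used here says whether the counting used strand.

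Insig1 and Insig2 encode the proteins that retain SCAP in the endoplasmic reticulum. Insig1, itself a target of SREBP, had 58.5, 72.8 and 68.5 CPM in HET and 45.7, 29.6 and 75.4 CPM in the KO-labelled libraries. KO replicates 1 and 2 lay below all HET libraries and KO replicate 3 above them, with a log2 fold change of -0.41 ± 0.35 (-0.14 when KO replicate 2 was left out, -0.82 when KO replicate 3 was). Insig2 (chromosome 1, 121304353 to 121332589, GRCm38) had 77.5, 89.2 and 78.2 CPM in HET and 40.7, 41.5 and 35.6 CPM in the KO-labelled libraries. The labels did not overlap, and the highest KO-labelled value was far under the lowest HET value. Means were 81.7 ± 6.56 CPM in HET and 39.3 ± 3.20 CPM in the KO-labelled libraries (SD, n = 3 each), a log2 fold change of -1.06 ± 0.17. In edgeR the unadjusted p was 0.000661 and the adjusted p 0.579, while DESeq2 gave an adjusted p of 0.00178. Over the leave-one-out fits the log2 fold change of Insig2 stayed between -1.10 and -0.99, so its size did not rest on 1 library. KO replicate 3, whose Tgfb1i1 level was within the HET range, had the lowest Insig2 level of all.

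In the sterol branch, 16 of 18 enzymes had lower fitted values in the KO-labelled libraries, with a median log2 fold change of -0.57, against 49.1% lower and a median of 0.01 over all tested genes. At an unadjusted p under 0.05 there were 5, all lower, against 4.29% of all genes lower at that level, and none passed the adjusted threshold of edgeR or of DESeq2. The lower values ran along the whole pathway. From acetyl-CoA to farnesyl diphosphate 6 of 7 enzymes were lower (median -0.59), and from squalene to cholesterol 10 of 11 were lower (median -0.54). The enzymes with the opposite sign were Acat2, the thiolase that opens the pathway, and Dhcr7, one of its last reductases. Without KO replicate 2 the count of the branch was 17 of 18 and its median -0.39. Over the fits that left out 1 library each, the median ran from -0.67 to -0.39.

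In the mevalonate part, 3 of 7 enzymes lay lower without overlap between the labels, against 7.42% of all tested genes. Mevalonate kinase, Mvk (chromosome 5, 114444269 to 114460591), had 26.1, 23.3 and 26.1 CPM in HET and 21.7, 16.1 and 19.0 CPM in the KO-labelled libraries, a log2 fold change of -0.41 ± 0.21 (unadjusted p = 0.0993, adjusted p = 0.596, edgeR). Mvd, the decarboxylase that makes isopentenyl diphosphate (chromosome 8, 122433601 to 122443422), had 17.4, 23.4 and 31.1 CPM in HET and 15.3, 12.5 and 16.3 CPM in the KO-labelled libraries. The gap between its lowest HET and highest KO-labelled library was small, and its log2 fold change was -0.70 ± 0.29. Gm20388, a gene model with more counts than Mvd, overlaps it on the opposite strand. Fdps, farnesyl diphosphate synthase (chromosome 3, 89093588 to 89101959), had 47.7, 61.6 and 50.2 CPM in HET and 34.0, 25.4 and 46.4 CPM in the KO-labelled libraries, a log2 fold change of -0.59 ± 0.27. KO replicate 3 came close to the HET range and KO replicate 2 was lowest. Of the enzymes whose labels overlapped, Hmgcs1 had a log2 fold change of -0.68 ± 0.32, and Idi1, which isomerises isopentenyl diphosphate, one of -0.61 ± 0.38. Pmvk, phosphomevalonate kinase, stood at -0.35 ± 0.32 and Acat2 at 0.06 ± 0.23, the latter with a sign that turned with the library left out.

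Squalene epoxidase and lanosterol synthase, which turn squalene into the first sterol, were lower in every KO-labelled library. Sqle (chromosome 15, 59315077 to 59331192) had 109, 87.7 and 94.8 CPM in HET and 76.1, 59.0 and 53.6 CPM in the KO-labelled libraries, a log2 fold change of -0.63 ± 0.21 (unadjusted p = 0.0222, adjusted p = 0.579, edgeR). Lss (chromosome 10, 76531588 to 76557138) had 47.4, 55.4 and 59.0 CPM in HET and 37.1, 26.1 and 34.6 CPM in the KO-labelled libraries. Its log2 fold change was -0.73 ± 0.21 (unadjusted p = 0.013, the smallest of the branch), and it ran from -0.84 to -0.59 over the fits without 1 library each. The gap between the labels was wider than the SD of either label for Lss and about as wide for Sqle.

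Among the later enzymes, which demethylate, reduce and isomerise the sterol rings, the range was wider. Nsdhl, a sterol dehydrogenase of the C4 demethylation complex (chromosome X, 72918557 to 72958514), had 43.0, 74.0 and 61.9 CPM in HET and 32.0, 12.8 and 32.6 CPM in the KO-labelled libraries. Every KO-labelled library was lower and KO replicate 2 was the lowest, with a log2 fold change of -1.21 ± 0.41 (unadjusted p = 0.0248, adjusted p = 0.579, edgeR) and a range of -1.41 to -0.89 without 1 library each. Tm7sf2, a sterol C14 reductase (chromosome 19, 6062821 to 6068373), had 4.46, 9.73 and 10.7 CPM in HET and 4.73, 3.0 and 3.09 CPM in the KO-labelled libraries. HET replicate 1 was as low as the KO-labelled libraries, so the labels overlapped, and the log2 fold change was -1.20 ± 0.44 (unadjusted p = 0.032). Vps51 overlaps Tm7sf2 on the same strand. Sc5d, the sterol C5 desaturase (chromosome 9, 42251595 to 42264256), had 47.4, 104 and 129 CPM in HET and 92.9, 47.9 and 84.5 CPM in the KO-labelled libraries, an overlap over most of the range and a log2 fold change of -0.32 ± 0.43. That value ran from -0.63 without HET replicate 1 to -0.01 without HET replicate 3.

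Of the remaining sterol enzymes, Fdft1, Cyp51, Msmo1 and Hsd17b7 had log2 fold changes of -0.54, -0.45, -0.46 and -0.72 with overlapping labels. Fdft1 and Cyp51 overlap the genes Ctsb and Akap9 on the opposite strand. Ebp, which moves a double bond in the sterol ring, stood at -0.04 ± 0.33, and its sign turned with the scaling and with the library left out. Dhcr7 was the exception in size, with a log2 fold change of 0.86 ± 0.61, and it was singled out after its values were seen. It had 15.2, 9.56 and 10.2 CPM in HET and 9.33, 42.2 and 12.1 CPM in the KO-labelled libraries. That difference came from KO replicate 2, and without it the log2 fold change was -0.13.

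**Figure D2:**
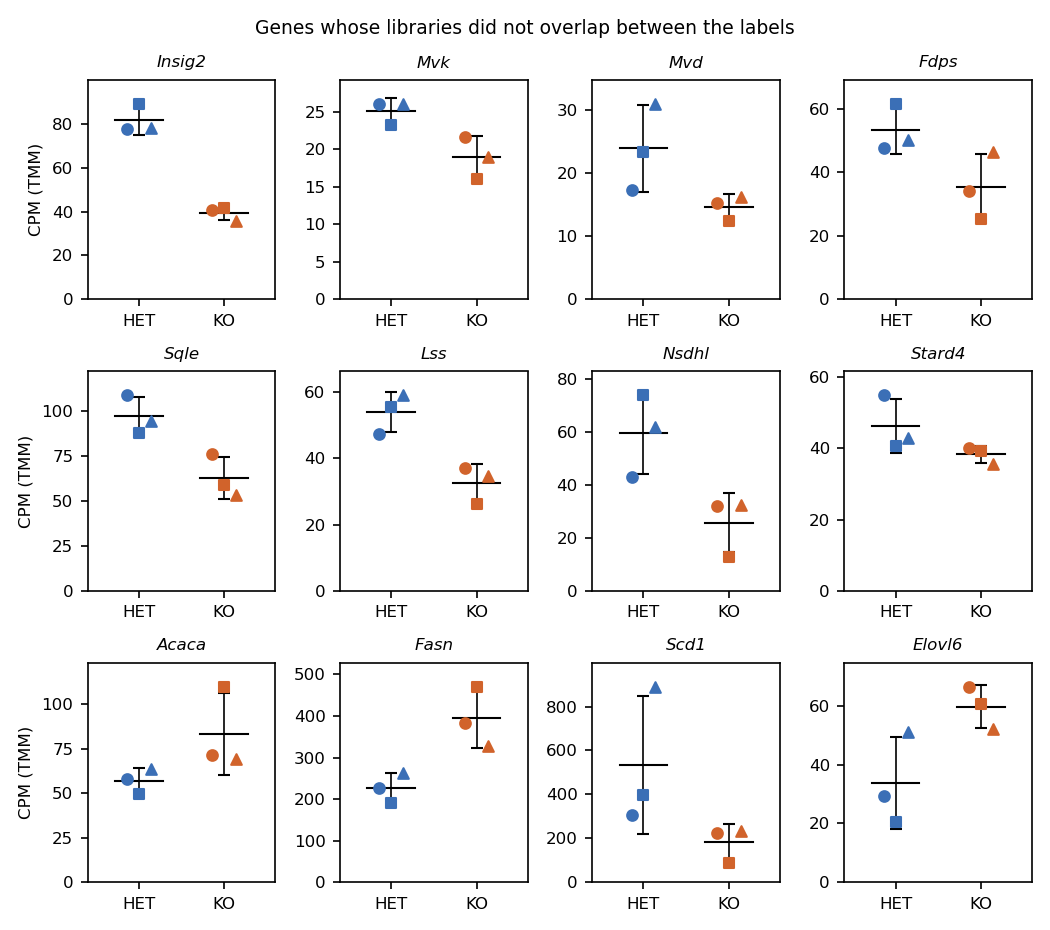
CPM (scaled by TMM factors) of the 12 genes whose libraries did not overlap between the labels, with replicates 1, 2 and 3 as circles, squares and triangles, and the mean ± SD of each label in black (n = 3 each). Insig2 shows the widest gap relative to its spread, from 77.5 CPM in the lowest HET library to 41.5 CPM in the highest KO-labelled library, and Acaca, Fasn and Elovl6 lie higher in the KO-labelled libraries.

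Each KO-labelled library was also set against the range of the 3 HET libraries. KO replicate 1 lay below all HET libraries for 11 of the 18 sterol enzymes, against 29.5% of all tested genes. KO replicate 2 did so for 13, against 33.4%, and KO replicate 3 for 9, against 23.9%. Within the HET range lay 6 enzymes in KO replicate 1, 4 in KO replicate 2 and 9 in KO replicate 3, with 1, 1 and 0 above it. A link of these counts to the Tgfb1i1 level was not tested. Between the libraries that share a title number, KO replicate 3 was below HET replicate 3 for 16 of the 18 sterol enzymes. Among all tested genes the share was 49.7%, and the median difference of the sterol enzymes was -0.47 in log2 CPM. However, HET replicate 3 had the highest sterol mean of any library, at 0.41 in log2 CPM less the mean of each gene. That mean was 0.02 and 0.32 in HET replicates 1 and 2, and -0.13 in KO replicate 3. A count against the library with the highest mean gives no test of the label.

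The 3 transport genes did not share a direction. Stard4, which carries cholesterol between membranes inside the cell, had 55.0, 40.8 and 43.0 CPM in HET and 40.1, 39.2 and 35.7 CPM in the KO-labelled libraries. The labels did not overlap, but by a small margin, and the log2 fold change was -0.27 ± 0.19, or -0.12 without HET replicate 1. Abca1, which exports cholesterol to apolipoprotein A-I and is a target of LXR, had 48.5, 69.1 and 330 CPM in HET and 40.1, 6.51 and 54.4 CPM in the KO-labelled libraries. HET replicate 3 was high and KO replicate 2 low, with the other libraries close together, and the log2 fold change was -2.15 ± 1.01 (unadjusted p = 0.0743, adjusted p = 0.589, edgeR) and -0.80 without HET replicate 3. Abcg1, a second exporter controlled by LXR and abundant in macrophages, had 2.09, 6.26 and 2.00 CPM in HET and 3.34, 0.155 and 19.9 CPM in the KO-labelled libraries. Its highest libraries were KO replicate 3 and HET replicate 2, and its log2 fold change of 1.17 ± 1.39 became -0.98 without KO replicate 3. The sum over 10 leukocyte and macrophage markers was also highest in those libraries, which had 1430 CPM (HET) and 1140 CPM (KO), against 17.1 to 50.5 CPM in the other 4. The part of these markers in the Abcg1 values was not tested.

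The fatty acid branch did not share 1 direction: 5 of 8 enzymes were lower and 3 higher in the KO-labelled libraries, against 49.1% lower among all genes. The median log2 fold change was -0.38, and it shrank to -0.11 when HET replicate 1 was left out and to -0.21 when KO replicate 2 was. An unadjusted p under 0.05 was found for 3, against 8.59% of all genes, with Scd1 and Fads2 lower and Fasn higher, and none passed the adjusted threshold. Read by reaction, the enzymes that build and lengthen the chain were mostly higher and the desaturases were lower. This division was chosen after the values were seen and is given without a test. Of Acly, Acaca, Fasn and Elovl6, 3 of 4 were higher, with a median of 0.67. All 4 desaturases, Scd1, Scd2, Fads1 and Fads2, were lower, with a median of -1.0.

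Fatty acid synthase, Fasn (chromosome 11, 120805846 to 120824547), which assembles palmitate, had 227, 191 and 262 CPM in HET and 384, 471 and 328 CPM in the KO-labelled libraries. All KO-labelled libraries were higher, with means of 227 ± 35.6 CPM and 394 ± 72.4 CPM (SD, n = 3 each) and a log2 fold change of 0.80 ± 0.25 (unadjusted p = 0.0165, adjusted p = 0.579, edgeR). Acaca, the acetyl-CoA carboxylase that makes malonyl-CoA (chromosome 11, 84129672 to 84401651), had 57.9, 49.7 and 63.5 CPM in HET and 71.4, 110 and 69.2 CPM in the KO-labelled libraries. KO replicate 2 was the highest and the others lay just above HET, with a log2 fold change of 0.55 ± 0.25, or 0.30 without KO replicate 2. Elovl6, which lengthens palmitate (chromosome 3, 129532355 to 129638495), had 29.5, 20.5 and 51.0 CPM in HET and 66.5, 60.4 and 52.1 CPM in the KO-labelled libraries. HET replicate 3 nearly reached KO replicate 3, and the log2 fold change was 0.83 ± 0.35, or 1.26 without HET replicate 3. Acly, the citrate lyase that supplies acetyl-CoA to both branches, had a log2 fold change of 0.00 ± 0.21, with a 95% interval of -0.51 to 0.50.

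Scd1, the stearoyl-CoA desaturase that makes oleate (chromosome 19, 44394455 to 44407879), had 308, 397 and 891 CPM in HET and 225, 88.1 and 234 CPM in the KO-labelled libraries. Every KO-labelled library was lower, HET replicate 3 was the highest and KO replicate 2 the lowest, and the log2 fold change was -1.55 ± 0.55 (unadjusted p = 0.0298, adjusted p = 0.579, edgeR). Without 1 library each it ran from -1.82 to -0.95, the latter without HET replicate 3. Its neighbour and close paralog Scd2 (chromosome 19, 44293674 to 44306864) had 1850, 845 and 658 CPM in HET and 927, 310 and 756 CPM in the KO-labelled libraries. HET replicate 1 and KO replicate 2 stood at the ends and the others overlapped, with a log2 fold change of -0.75 ± 0.56. Leaving out HET replicate 1 gave -0.17, and leaving out KO replicate 2 gave -0.41. No source used here says how reads were divided between the similar Scd genes, so the split between Scd1 and Scd2 is uncertain.

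Fads1 and Fads2 encode the desaturases that make polyunsaturated fatty acids from dietary precursors and lie next to each other on chromosome 19. Fads2 (10062765 to 10101746) had 72.6, 53.1 and 25.5 CPM in HET and 22.0, 27.2 and 15.4 CPM in the KO-labelled libraries. Only HET replicate 3 lay among the KO-labelled values, and the log2 fold change was -1.23 ± 0.43 (unadjusted p = 0.0265, adjusted p = 0.579, edgeR). Fads1 had the same order of labels with wider overlap and a log2 fold change of -0.77 ± 0.40. Markers of fat cells, in which stearoyl-CoA desaturase is abundant, were also lower: their sum over 11 genes ran from 157 to 518 CPM for HET and from 76.8 to 107 CPM for KO. All 6 tested markers of that list had lower fitted values, against 49.1% of all tested genes. Most of the sum was Lpl, at 468, 184 and 104 CPM in HET and 84.1, 89.3 and 41.6 CPM in the KO-labelled libraries. Plin4, Lpl and Pparg lay lower without overlap between the labels, against 7.42% of all tested genes. Fabp4, Cebpa and Cd36 overlapped. Adipoq, Plin1, Cidec, Lep and Retn were below the filter on low counts. The part of these markers in the desaturase values was not tested.

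The branches were also compared within each library, as the mean over a branch of log2 CPM less the 6-library mean of each gene. Sterol branch means were 0.02, 0.32 and 0.41 in HET and -0.17, -0.46 and -0.13 in the KO-labelled libraries, with no overlap. Fatty acid branch means were 0.23, -0.01 and 0.13 in HET and 0.07, -0.28 and -0.15 in the KO-labelled libraries, with overlap. The difference, sterol less fatty acid, was -0.21, 0.33 and 0.28 in HET and -0.24, -0.17 and 0.02 in the KO-labelled libraries. The labels overlapped in this difference, since HET replicate 1 lay with the KO-labelled libraries, so these data do not set the sterol branch apart from the fatty acid branch taken whole. Its mean was 0.13 ± 0.30 in HET and -0.13 ± 0.14 in the KO-labelled libraries (SD, n = 3 each). Divided by reaction, the chain synthesis and elongation enzymes had means of -0.32, -0.58 and 0.06 in HET and 0.28, 0.47 and 0.10 in the KO-labelled libraries, and the desaturases 0.78, 0.57 and 0.20 in HET and -0.13, -1.03 and -0.39 in the KO-labelled libraries. Without any 1 library the median log2 fold change of the 4 desaturases stayed between -1.16 and -0.79, and that of the 4 chain enzymes between 0.48 and 0.80. Because this division by reaction was chosen after these same values were seen, neither the means nor the medians are a test of it.

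**Figure D3:**
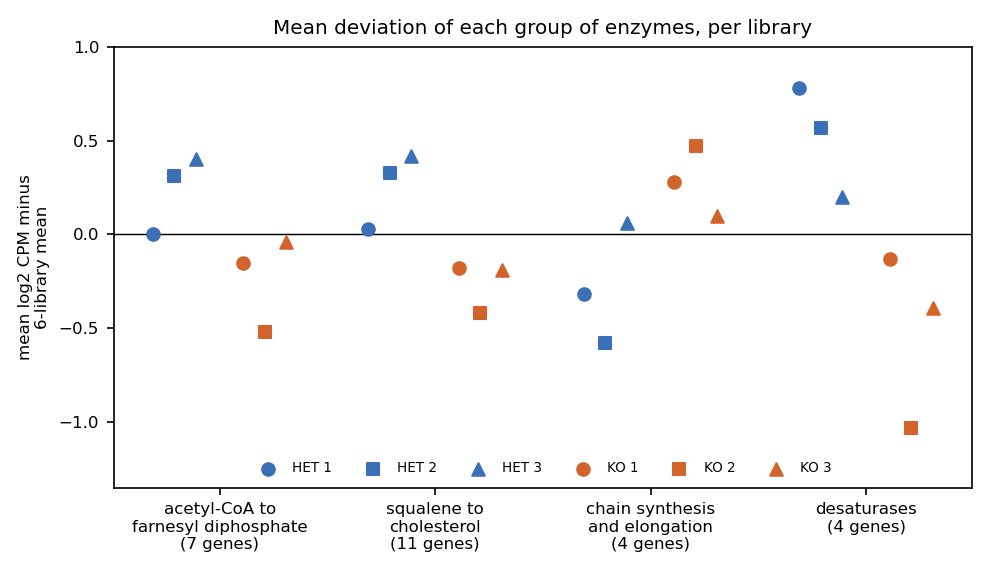
Mean log2 CPM less the 6-library mean of each gene, averaged over the genes of each step, with 1 point per library (HET blue, KO orange; circles, squares and triangles for replicates 1, 2 and 3). Both parts of the sterol pathway and the desaturases are lower in the KO-labelled libraries, and the chain synthesis and elongation enzymes are higher, with a small margin between HET replicate 3 at 0.06 and KO replicate 3 at 0.10. The division of the fatty acid genes was chosen after the values were seen.

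Per kilobase of annotated exon, the stearoyl-CoA desaturases Scd2 and Scd1 had the highest mean levels of the 34 transcripts. Scd2 stood at 160 CPM per kb over the 6 libraries, Scd1 at 71.8, Acly at 43.7, Fads1 at 36.8 and Fasn at 28.9. Within the KO-labelled libraries the order of Scd1 and Fasn was not resolved, at 38.6 ± 16.2 and 38.0 ± 8.79 CPM per kb (SD, n = 3 each), while in HET they stood at 105 ± 66.3 and 19.8 ± 3.82. Of the sterol enzymes, Acat2 (24.4), Cyp51 (24.1) and Hmgcs1 (20.1 CPM per kb) had the highest levels and Tm7sf2 (1.33) the lowest. Abcg1 was the least abundant of all at 0.764 CPM per kb.

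Over the 34 genes, the libraries did not divide by label alone. The first principal component of the 34 genes held 61.3% of their variance and set KO replicate 2 at 6.29, against -2.75 to 0.53 in the other 5 libraries. On it KO replicate 3 (-1.23) lay among the HET libraries and KO replicate 1 (0.53) next to HET replicate 1 (-0.15).

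**Figure D4:**
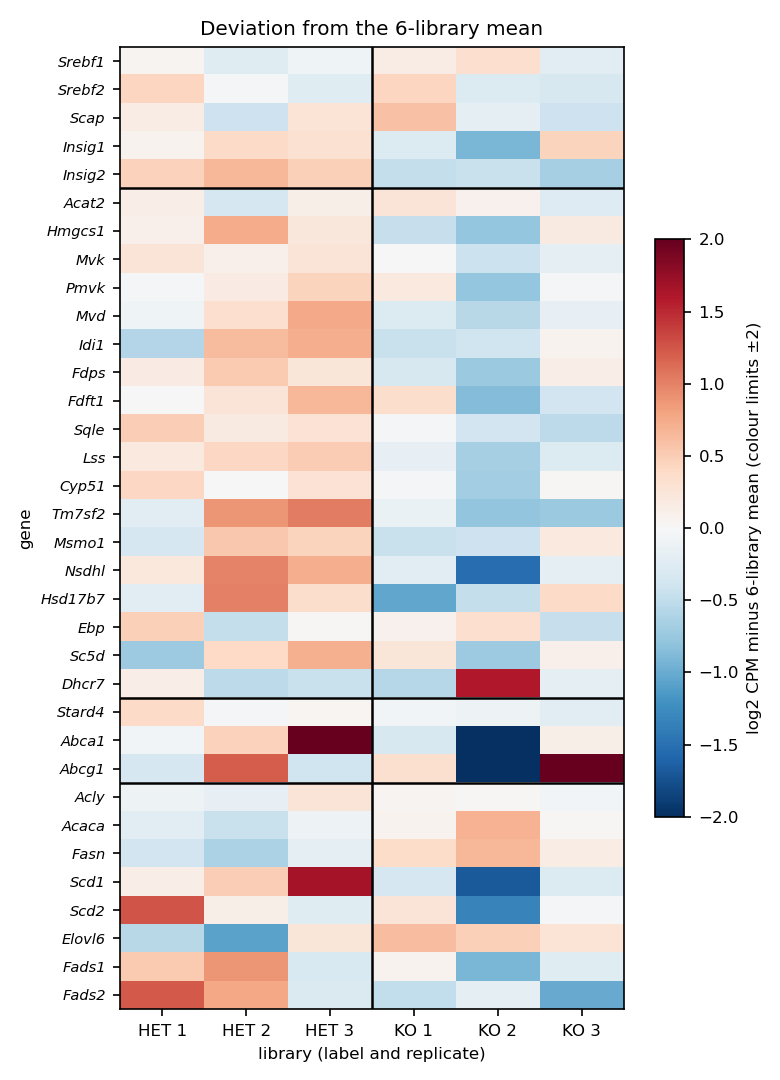
Deviation of each gene's log2 CPM from its 6-library mean, with genes in pathway order in rows, libraries in columns and colours limited to ±2; the horizontal lines divide regulators, sterol branch, transport and fatty acid branch. The sterol rows are mostly red in HET replicates 2 and 3 and blue in KO replicate 2, Dhcr7 is the opposite in KO replicate 2, and Abca1 and Abcg1 pass the colour limits.

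Other genes of these pathways were divided about evenly between the directions. Of 24 other tested genes of sterol synthesis, sensing, uptake, storage and export, 11 were lower in the KO-labelled libraries with a median of 0.03, and of 33 other fatty acid genes 16 were lower with a median of 0.01, against 49.1% and 0.01 over all tested genes. None of either list passed edgeR's adjusted threshold. Nr1h3, which encodes LXR alpha, had the smallest unadjusted p of the sterol list, with 4.57, 4.01 and 8.47 CPM in HET and 0.933, 0.413 and 1.07 CPM in the KO-labelled libraries. The labels did not overlap, and the log2 fold change was -2.82 ± 0.55 (adjusted p = 0.579 in edgeR and 0.000466 in DESeq2). Soat2, which esterifies cholesterol, stood at -3.16 ± 1.04 from low counts, Mmab, which shares a promoter region with Mvk, at -0.53 ± 0.21, and Lpcat3, a lysophospholipid acyltransferase under LXR, at -0.71 ± 0.32. In the fatty acid list Elovl4, which makes very long chains, had 2.27, 1.25 and 0.824 CPM in HET and 5.00, 6.61 and 4.84 CPM in the KO-labelled libraries. Its labels did not overlap, and the log2 fold change was 1.92 ± 0.47 (adjusted p = 0.579 in edgeR and 0.029 in DESeq2). Hacd3, an elongation dehydratase, stood at 0.84 ± 0.28, Me1, the malic enzyme that yields NADPH, at -0.65 ± 0.23, and Acacb, the mitochondrial carboxylase, at -1.17 ± 0.47. Of 9 genes that use the isoprenoid intermediates for prenyl groups, dolichol and ubiquinone, 7 were lower with a median of -0.22, and none had an unadjusted p under 0.05.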

How the data were processed

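RNA of 6 libraries was sequenced after removal of ribosomal RNA, with a stranded kit per the labels' protocols. Per the submitters' processing notes, the builds were GRCm38 and mm10 and the tools included cutadapt 1.2.1, Bowtie2 and Partek, and no source used here names the counting method. Each gene has an estimated count deposited by the authors (85% of values whole), rounded here before testing, and an RPKM value, also deposited. Over 13511 genes, the length implied by the deposited RPKM was a fixed multiple (1.22) of the gene span with introns for 94.6% of genes within 5%, and of summed exons for 3.52%, so levels between genes were compared as CPM per exon kilobase (GENCODE M21) instead. Of 48408 rows, 30 with shifted fields were left out, and 7 repeated symbols were summed.

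Genes passing filterByExpr were scaled by TMM and tested, KO against HET, two-sided, in edgeR 4.0.16 (R 4.3.3) by its quasi-likelihood test, with Benjamini-Hochberg adjustment over all genes at a threshold of 0.05. Each SE was obtained from the log2 fold change and its F statistic. The test was tried on simulated counts. Replicate numbers follow accession order and pair nothing. Alternatives were RLE factors, library totals, other filters, DESeq2 1.42.0, limma-voom (limma 3.58.1), a term for the title number that 2 libraries share, leaving out libraries, and limma on log2(RPKM + 1) or log2(RPKM + 0.1). The members and lists were chosen with earlier results of these data known, and lists were given by counts and medians with no test. Values per library were given for the regulators, for the 4 genes of smallest p and the gene of highest RPKM in each other group, and for every gene whose labels did not overlap. Of other lists, up to 4 genes of smallest p were named.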

Additional observations from a re-analysis of the deposited data

How the results depend on the processing

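Against a main count of 0, DESeq2 put 1 of the 34 genes past the adjusted threshold, Insig2; each other alternative gave 0, with adjusted p for Insig2 of 0.393 to 0.975. The sterol branch median (-0.57) stayed below 0 in every alternative, and was -0.30 with limma on log2(RPKM + 1), with or without a filter; the fatty acid median (-0.38) was -0.16 there; these fits also lack TMM factors, and library totals alone gave -0.44 and -0.24. Leaving out 1 library each, the fatty acid median ran from -0.52 (without KO replicate 1) to -0.11 (without HET replicate 1), and 13 to 19 genes did not overlap between labels, against 12 (19.1% to 33.5% of all genes, against 15.5%); with both libraries of the shared title number left out it was 22, against 43.7% of all genes, as fewer libraries are compared. Signs of small differences turned. With library totals, Srebf2 stood at 0.05, Ebp at 0.12 and Acly at 0.13; with log2(RPKM + 1), filtered or not, at 0.02, 0.08 and 0.10; with log2(RPKM + 0.1), at 0.02, 0.10 and 0.13. In limma-voom, Scap was -0.01, Ebp 0.00, Abcg1 -0.66 and Acly 0.00. Acly was 0.01 without a filter and 0.01 with the title-number term; with both shared-number libraries out, Ebp was 0.11, Abcg1 -1.26 and Acly 0.14. Leaving out 1 library each, Srebf2 ran from -0.38 to 0.13, Ebp from -0.25 to 0.23, Acly from -0.09 to 0.14, Scap from -0.33 to 0.23, Acat2 from -0.08 to 0.19, Dhcr7 from -0.13 to 1.22 and Abcg1 from -0.98 to 1.92. The cause was not tested. With windows of 250 bases, CCAAT was found in 19 genes against 20. No paired analysis was possible because only 1 title number is shared by a HET and a KO library. With a common dispersion of 0.303 and 3 libraries per label, the SE of these log2 fold changes ran from 0.17 to 1.39, which limits what the test can call.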
